A study of Rattus norvegicus and Ovis aries with 113 samples.

Results

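The genes described here bear names of families that build or assemble the axoneme, the microtubule core of motile cilia and of the sperm tail. A symbol alone does not show that each of these genes acts there. They are all genes whose symbol starts with DNAH, DNAI, DNAAF, RSPH, CFAP, ODAD, DRC or TEKT followed by a digit. The rule used symbols alone and no measured value. It found 94 of the 31304 genes of the sheep count table and 98 of the 38675 genes of the rat table. All 94 sheep symbols were also in the rat table, and Cfap53, Drc12, Tekt5l1 and the pseudogene Odad2-ps1 were members in the rat table alone. RefSeq lists Ccdc153 as another name of rat Drc12, and the sheep table holds CCDC153, which the symbol rule leaves out. Both species had 5 outer arm dynein heavy chains, 8 inner arm heavy chains, 5 intermediate chains, 10 assembly factors and 7 radial spoke genes. Sheep and rat had 4 and 5 docking complex genes, 3 and 4 genes of the nexin-dynein regulatory complex, 5 and 6 tektins, and 47 and 48 CFAP genes.

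RNA-seq of brain and reproductive material was available for 113 libraries, 55 from sheep and 58 from rat, and the labels name no treatment, genotype or estrous stage. The 5 post-pubertal male sheep, labelled 687, 688, 690, 694 and 699, each gave 1 sperm library and 10 brain libraries, from the pons, the hippocampus (HC), the cerebellum (CB), the basal ganglia (BG) and the entorhinal (EC), visual (VC), motor (MC), frontal (FC), prefrontal (PC) and posterior parietal (PPC) cortex. The 15 post-pubertal male Sprague Dawley rats, numbered 3 to 17, gave whole brain and seminal fluid labelled as sperm. The 14 females of the same strain, numbered 1, 2 and 18 to 29, gave whole brain and ovary. Sheep and rat libraries were made with different stranded mRNA kits, so species and kit cannot be told apart.

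As background, an axoneme is a ring of doublet microtubules around a central apparatus. Outer and inner dynein arms, built of heavy and intermediate chains and anchored by a docking complex, slide the doublets, while radial spokes and the nexin-dynein regulatory complex control the bending and tektins run as filaments inside the doublets. In the brain such cilia stand on ependymal and choroid plexus cells, in the female tract on oviduct epithelium, and in the testis the same machinery drives the sperm tail, with some subunits in separate cilium and sperm forms.

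RFX transcription factors bind an inverted repeat, the X-box, known from promoters of cilium genes, and the rat promoters were searched for its letters on both strands. RefSeq (GRCr8) gave a promoter of 300 bases for 81 of the 98 rat members and for 27457 genes in all, from 250 bases before to 50 after the transcript start, with 1 promoter per symbol. An arm of the form GTTNCC was in 69.1% of the member promoters and in 45.7% of all promoters. GTTGCC, which GTTNCC contains, was in 28 member promoters, or 34.6% against 12.2% of all. A GTTNCC followed by GGNAAC at a distance of 1 to 2 bases was in 6 member promoters, or 7.41% against 0.743%. The forkhead letters TGTTTAC were in 3.70% of member promoters against 3.76% of all, and CCAAT was in 37.0% against 37.7%. The 6 promoters with the paired letters are printed because they cover a docking complex gene, a pair of assembly factors and 3 CFAP genes; capitals mark the paired letters, and up to 40 bases on either side are kept in lower case. A match is a description of the letters, and no binding was measured.
Cfap144, chr10:44019282-44019342 (minus strand): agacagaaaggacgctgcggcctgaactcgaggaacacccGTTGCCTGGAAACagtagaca
Cfap20dc, chr15:18661344-18661437 (plus strand): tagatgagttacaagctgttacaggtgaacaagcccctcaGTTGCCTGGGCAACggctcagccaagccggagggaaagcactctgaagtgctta
Cfap298, chr11:43677560-43677632 (minus strand): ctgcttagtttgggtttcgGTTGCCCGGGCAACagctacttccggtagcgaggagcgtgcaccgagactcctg
Dnaaf2, chr6:93406358-93406451 (minus strand): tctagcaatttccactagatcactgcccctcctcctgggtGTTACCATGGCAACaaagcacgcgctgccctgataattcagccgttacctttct
Dnaaf6, chrX:108512913-108513001 (plus strand): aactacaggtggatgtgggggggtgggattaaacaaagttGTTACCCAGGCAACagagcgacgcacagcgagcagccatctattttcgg
Odad3, chr8:28810512-28810584 (minus strand): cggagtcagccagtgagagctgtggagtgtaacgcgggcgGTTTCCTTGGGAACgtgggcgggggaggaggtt
These 6 genes did not move as one against rat brain: Cfap144 and Odad3 were called higher in sperm and Cfap20dc lower, while in ovary Cfap144 and Dnaaf6 were called higher and Cfap20dc lower, by the test described with the sperm results. With the animal as a block the higher calls in sperm and that of Dnaaf6 in ovary were lost, at -0.91 for Cfap144, 0.95 for Odad3 and 0.96 for Dnaaf6.

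Library totals ran from 46.7 to 72.4 M counts (median 57.0) in sheep brain, 13.7 to 65.1 (47.4) in sheep sperm, 38.2 to 102 (49.5) in male rat brain, 13.7 to 65.1 (52.1) in rat sperm, 45.2 to 119 (55.4) in female rat brain and 50.5 to 60.3 (55.1) in ovary. Members took 2154 to 15047 counts of a sheep sperm library and 7177 to 469847 of a rat sperm library, so low members rest on few counts in sperm. PRM1, a sperm protamine, lay between 165 and 5503 CPM (counts scaled to library size, as described with the processing) in sheep sperm and between 11.7 and 5220 CPM in rat sperm. It was 0 in all 50 sheep brain libraries and at most 0.0786 CPM in rat brain. The summed CPM of a neutrophil list was 13841 to 158890 in sheep sperm, highest in sheep 688, against at most 6.26 in sheep brain, and a squamous epithelium list summed to 4591 to 87300 CPM there; the part of these cells in the sheep sperm results was not tested. In bulk material fewer cells of a type and less RNA per cell cannot be told apart.

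In rat sperm more members were called above brain than below it, but with the animal as a block more were called below than above. Without the block, the genes called below brain were led by the outer arm heavy chains and the spoke head known from motile cilia. Against the brains of the same 15 males, edgeR's quasi-likelihood test called 52 of 96 tested members higher in sperm and 7 lower, a call being a Benjamini-Hochberg adjusted p under 0.05 with a change of at least 1 on the log2 scale. Over all 20480 genes tested, 27.6% were called higher and 31.5% lower. The median log2 fold change was 1.50 over the members and -0.03 over all genes. Cfap107 and Odad2-ps1 were below the filter on low counts, and the pseudogene had no count in any of the 15 sperm libraries. Every sperm library lay above every male brain library for 6 members and below for 4, against 9.52% and 23.8% of all genes.

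The higher calls rested in part on a few libraries. Library 14 was the highest of the 15 for 88 of the 91 members that averaged 1 CPM or more in sperm, and over these members the median ratio of the highest library to the median library was 41.7. Summed over members, sperm libraries ran from 387 CPM in library 17 through a median of 588 to 8900.1 CPM in library 14, while male brains ran from 713 to 892 CPM. Abundant members weigh most in such sums. Dnaaf9 and Cfap36 averaged 115 and 104 CPM in male brain, and Dnaaf1 and Cfap36 158 and 90.1 CPM in sperm. Of the 52 members called higher, 27 were higher in sperm than in the animal's own brain in most of the 15 animals, 8 in all 15, and 25 in 7 or fewer. With the animal as a block, 11 members were called higher and 21 lower, against 21.4% and 36.8% of all genes. The 11, all among the 52, were Cfap68, Cfap119, Cfap141, Cfap206, Dnaaf1, Dnaaf5, Dnaaf8, Dnaaf10, Dnah1, Rsph9 and Tekt5l1, and all 7 of the lower calls were called lower with the block. Without library 14, 41 were called higher. A list of late spermatid genes summed to 365 to 33803 CPM in the same sperm libraries with its highest value also in library 14; its part in the member values was not tested. Of the squamous list, Krt5 and Krt14 had log2 fold changes of 12.8 and 10.1 against brain, and Loricrin -8.90. Lcn5, Crisp1 and Aqp2, of an epididymis and vas deferens list, were at 3.32, 8.98 and 18.7. The part of these cells was not tested either. Libraries 16 and 17 held 375 and 358 genes with 1 to 5 counts, against a sperm median of 4351.

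**Figure D1:**
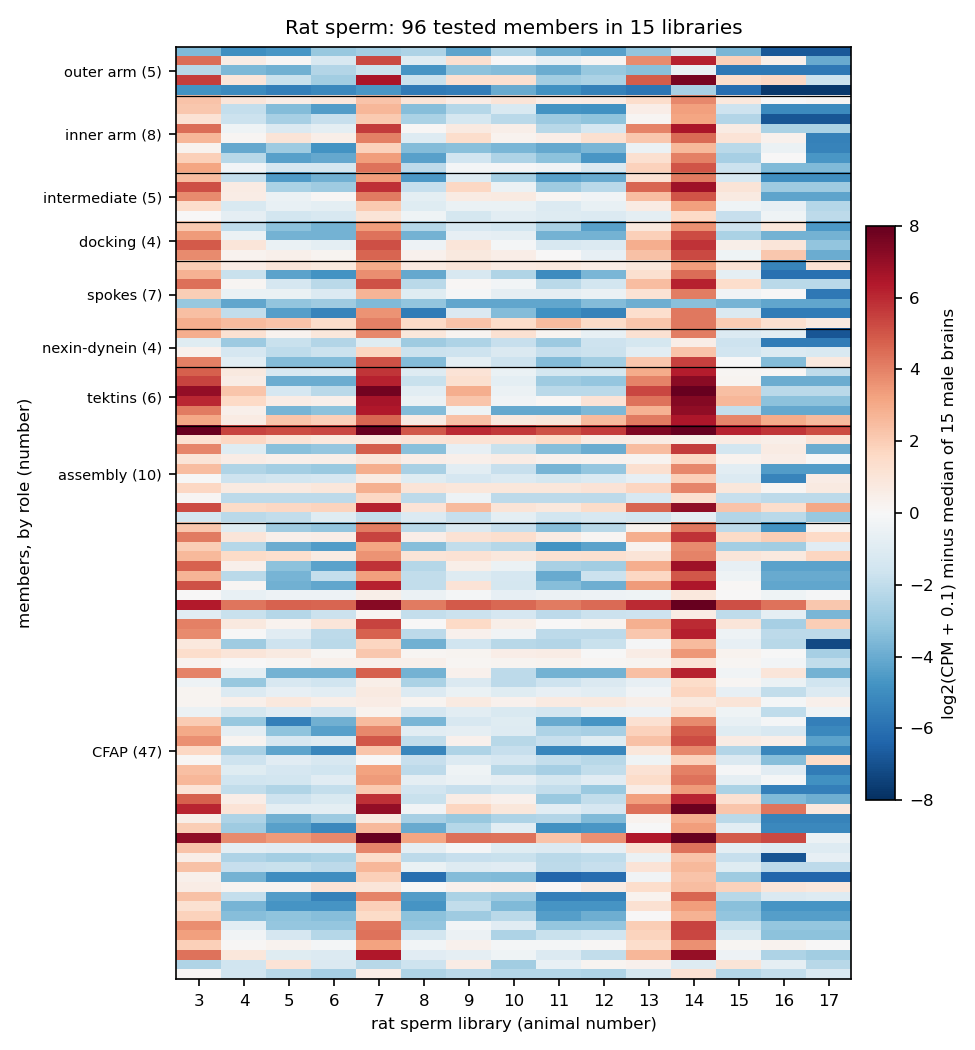
Each row is 1 of the 96 tested rat members, grouped by role, and each column 1 of the 15 rat sperm libraries. Colour is log2(CPM + 0.1) minus the median of the 15 male brains; the column of library 14 is above brain in most rows, and most other columns hold values on both sides of brain.

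The outer arm heavy chains split by form. DNAH5, DNAH9 and DNAH11 are the heavy chains of ciliary outer arms, and DNAH8 and DNAH17 are their counterparts in the sperm tail. Dnah9 (chromosome 10, 50996796 to 51363977) had a lowest, median and highest of 0, 0.393 and 3.39 CPM in sperm and 13.8, 21.1 and 30.3 CPM in male brain. The groups did not overlap, and the log2 fold change was -5.02 ± 0.48 (SE, n = 15 each; edgeR adjusted p = 5.7e-11). Dnah11 was at 0, 0.782 and 4.51 CPM in sperm and 5.59, 11.1 and 16.8 CPM in brain, also without overlap, with a change of -3.22 ± 0.49 on the log2 scale (edgeR adjusted p = 6.7e-07). Dnah5 was at 0, 0.372 and 3.54 CPM against 3.41, 5.16 and 7.14 CPM, where the highest sperm library just passed the lowest brain. Its log2 fold change was -2.86 ± 0.56 (edgeR adjusted p = 3.2e-05).

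Both sperm-tail heavy chains were called higher, on a minority or a small majority of animals. Dnah8 (chromosome 20, 8694371 to 8948849) was at 0, 1.54 and 134 CPM in sperm and 0.236, 0.587 and 0.947 CPM in male brain. It was above the animal's own brain in 9 of 15 animals, with a change of 4.93 ± 1.05 on the log2 scale (edgeR adjusted p = 9.8e-05) that was 0.82 and not called with the animal as a block (adjusted p = 0.54). Dnah17 was at 0, 2.08 and 116 CPM against 1.10, 1.54 and 2.12 CPM, higher in 7 of 15 animals, with a change of 3.52 ± 0.76 on the log2 scale (edgeR adjusted p = 1.1e-04) and 0.97 with the block (adjusted p = 0.26). The groups of both genes overlapped, with sperm libraries at 0 and others far above every brain.

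Of the 8 inner arm heavy chains 4 were called higher and none lower, as were 2 of 5 intermediate chains, 3 of 4 tested docking genes and 5 of 10 assembly factors, of which 1 more was called lower. Over all genes 27.6% were called higher and 31.5% lower. Assembly factors act in the cytoplasm, where they fold and join dynein arms before transport. Dnaaf1 (chromosome 19, 64532859 to 64560942) was at 32.3, 51.9 and 983 CPM in sperm and 0.629, 0.937 and 1.64 CPM in brain, the largest change among assembly factors. No library overlapped, and the log2 fold change was 7.23 ± 0.59 (edgeR adjusted p = 1.4e-12). Its locus overlaps the coding gene Hsdl1 in RefSeq, so reads of the neighbour may be counted with it. The same limit holds for Cfap119 (Rnf40), Dnaaf5 (Prkar1b) and Tekt5l1 (Cdc37l1) of the members called higher with the block. It also holds for Dnah11 (Cdca7l), Dnah17 (Pgs1) and Rsph14 (Gnaz), among others. Dnaaf10 was at 15.2, 23.5 and 34.8 CPM against 9.59, 11.1 and 12.2 CPM, again with no overlap and a narrower range. Dnaaf9 was the assembly factor called lower, at 14.1, 41.4 and 70.1 CPM in sperm against 97.3, 117 and 135 CPM in brain, without overlap. On the log2 scale Dnaaf9 changed by -1.46 ± 0.17 (edgeR adjusted p = 2.7e-09). Among intermediate chains, Dnai2 of the outer arm had a log2 fold change of 4.10 ± 1.05 but was higher in 7 of 15 animals, and its direction turned with the block (-0.34). The inner arm heavy chain Dnah14 changed by 3.77 ± 0.93, and by 0.44 with the block (adjusted p = 0.73).

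Among radial spoke genes 4 of 7 were called higher and 1 lower, against 27.6% and 31.5% of all genes. Rsph4a, the spoke head known from motile cilia (chromosome 20, 31307102 to 31323263), was at 0, 0.0391 and 0.153 CPM in sperm and at 1.12, 1.71 and 2.47 CPM in male brain. All 15 sperm libraries were below all brains, with a change of -4.99 ± 0.49 on the log2 scale (edgeR adjusted p = 8.9e-11). Rsph6a, its counterpart in sperm, was at 0, 0.347 and 90.8 CPM in sperm against 3.68, 4.75 and 6.29 CPM in brain and was above the own brain in 4 of 15 animals. It was not called (log2 fold change 1.52 ± 0.93, edgeR adjusted p = 0.136), and with the block it was called lower, at -3.16 (adjusted p = 0.048). Rsph9, another spoke head protein, was at 14.7, 41.0 and 167 CPM against 6.59, 8.73 and 11.2 CPM with no overlap, a log2 fold change of 2.63. Rsph14 was called higher at 3.50 ± 0.98 and was above the own brain in 6 of 15 animals (-0.24 with the block).

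All 6 tektins were called higher in rat sperm, 1 of them also with the block, and all 6 kept a positive sign under the 4 library scalings tried. Only Tekt5l1 was higher in all 15 animals, at 0.885, 3.51 and 56.2 CPM in sperm against 0.315, 0.537 and 0.828 CPM in brain (log2 fold change 4.02). Its locus overlaps the coding gene Cdc37l1, whose reads may be counted with it. Tekt2 was at 0, 0.818 and 231 CPM against 0.948, 1.45 and 2.44 CPM and was higher in 6 of 15 animals. Its log2 fold change of 4.38 ± 1.10 (edgeR adjusted p = 6.5e-04) became -0.66 with the block. Tekt5 was likewise higher in 6 of 15 animals, with a median of 0.0765 CPM in sperm and 1.58 CPM in brain, a change of 4.27 ± 1.18 on the log2 scale (edgeR adjusted p = 0.0017) and -1.91 with the block. Tekt1, Tekt3 and Tekt4 had log2 fold changes of 3.64 ± 0.80, 5.82 ± 1.22 and 4.83 ± 0.92 and were higher in 8, 7 and 11 of 15 animals. With the block none of the 3 was called, at 0.49, 0.55 and 1.65 (adjusted p = 0.55, 0.76 and 0.13). Library 14 had the highest Dnah8 and Tekt2, at 134 and 231 CPM, followed by library 7 at 62.7 and 109 CPM.

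Of 47 tested CFAP genes 24 were called higher and 1 lower, against 27.6% and 31.5% of all genes. Cfap206, a gene of the sperm and cilium axoneme (chromosome 5, 54050697 to 54095438), was at 3.78, 21.2 and 364 CPM in sperm and 0.449, 0.758 and 1.25 CPM in brain. The groups did not overlap, and the log2 fold change was 6.15 ± 0.56 (edgeR adjusted p = 1.8e-11). Cfap68, a protein inside the doublets, was at 0, 2.65 and 118 CPM against 0, 0.0367 and 0.162 CPM, higher in 14 of 15 animals (log2 fold change 8.16 ± 0.98). Cfap58 was at 0.0207, 0.550 and 68.0 CPM against 0.0550, 0.202 and 0.409 CPM, higher in 10 of 15 animals, with a log2 fold change of 5.53 ± 0.99 that was 2.15 and not called with the block (adjusted p = 0.085). Cfap20dc was called lower, at 2.91, 11.6 and 59.1 CPM against 26.8, 38.6 and 76.9 CPM (log2 fold change -1.18 ± 0.29). Drc12 was the member of the nexin-dynein regulatory complex called lower, at 0, 1.21 and 6.67 CPM against 2.85, 4.68 and 5.87 CPM, and Drc7 of the same complex was called higher (2.96 ± 0.98) with 5 of 15 animals above their own brain, and was at -1.16 with the block.

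**Figure D2:**
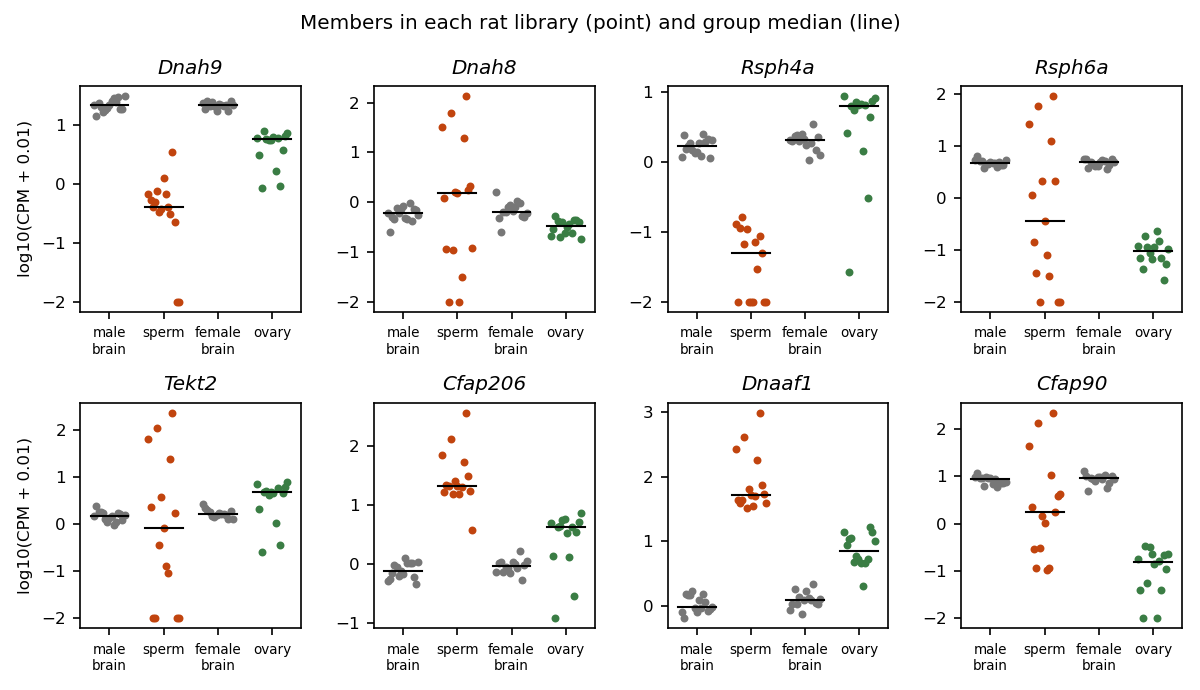
CPM of 8 rat members on a log10 axis, log10(CPM + 0.01), in male brain, sperm, female brain and ovary, with 1 point per library and a line at the median. Dnah9 and Rsph4a lie below male brain in every sperm library, Dnaaf1 and Cfap206 above it, and Dnah8, Rsph6a and Tekt2 spread across the brain level in sperm; Cfap90 is low in every ovary.

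In sheep sperm the tektins, the nexin-dynein regulatory genes and most docking genes were above brain at the scaling used here. Of the 10 assembly factors 5 were below it, a share near that of all genes. edgeR's quasi-likelihood test of the 5 sperm libraries against the mean of the 10 regions of the same sheep called 40 of 92 tested members higher and 17 lower. Over all 21859 genes tested, 33.1% were called higher and 41.1% lower. The median log2 fold change was 0.73 over the members and -0.42 over all genes. CFAP157 and DNAH14 were below the filter. All 5 sperm libraries lay above all 50 brain libraries for 6 members and below for 7, against 11.6% and 25.7% of all genes. With the animal as a block, 39 and 17 were called.

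The sheep sperm direction depended on how libraries were scaled. The trimmed mean of M values, used for the values here, and 3 other scalings gave the same sign for 49 of the 92 members, 24 of them higher and 25 lower. With plain library totals, which moved the median of all genes by -2.37 on the log2 scale, 14 members were called higher and 53 lower. With upper quartile factors, which moved that median by 0.729, 48 were called higher and 10 lower. Members summed to 268 CPM in sheep 688, to a median of 797 CPM and to 2020.5 CPM in sheep 687, where the 50 brain libraries ran from 436 to 988 CPM. Abundant members weigh most in these sums, with CFAP36 and DNAAF9 at means of 78.8 and 61.0 CPM in brain and DNAI7 at 230 CPM in sperm. In sperm 4 entries with LOC symbols took 22.4% (sheep 688) to 85.2% (sheep 687) of all counts, with a median of 60.4%, against 3.89% to 14.6% in brain; their part in the member values was not tested. Sheep 688 also had the lowest PRM1 (165 CPM), the lowest late spermatid sum (232 CPM, of a range up to 7698 CPM) and the highest neutrophil and squamous sums; their part in the member values was not tested.

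The outer arm heavy chains of the sperm tail were called higher in sheep sperm, and those of cilia were not called. DNAH17 was at 9.53, 11.6, 16.5, 34.0 and 13.7 CPM in the sperm of sheep 687, 688, 690, 694 and 699, the order used for all sheep values. Its lowest, median and highest over 50 brain libraries were 1.13, 2.48 and 5.60 CPM, so no library overlapped. The log2 fold change was 2.76 ± 0.19 (SE, edgeR adjusted p = 8.1e-19). With plain totals that change was 0.48 and not called. The fit took all libraries of the 5 sheep as independent, so SE and p here do not measure spread between animals alone. DNAH8 was at 6.31, 0.647, 2.63, 8.77 and 5.39 CPM against 0.0128, 0.307 and 1.38 CPM, where the value of sheep 688 lay within the brain range and the others above it. Its log2 fold change was 4.04 ± 0.32 (edgeR adjusted p = 1.9e-16).

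DNAH9 was at 9.53, 0.890, 6.26, 4.89 and 10.0 CPM in sheep sperm and at 0.898, 3.30 and 25.6 CPM in brain, so the groups overlapped (log2 fold change 0.32 ± 0.43, edgeR adjusted p = 0.49). DNAH5 was at 1.75, 2.51, 5.27, 4.00 and 0.674 CPM against 0.541, 2.64 and 22.8 CPM (-0.59 ± 0.54, edgeR adjusted p = 0.30). DNAH11 had no count in sheep 687 and 699 and 0.486, 3.95 and 8.11 CPM in the others (0.78 ± 0.58, edgeR adjusted p = 0.21). The signs of DNAH9 and DNAH11 turned with plain totals and that of DNAH5 with upper quartile factors. Spoke heads were not called either. RSPH4A was at 0, 0.405, 0, 0.777 and 1.01 CPM and RSPH6A at 3.89, 0.162, 0.329, 1.44 and 2.36 CPM, with log2 fold changes of 0.82 ± 1.11 and 0.16 ± 0.53, and both signs turned with plain totals. RSPH10B was the spoke gene called higher, at 65.8, 2.35, 29.6, 19.7 and 54.2 CPM (log2 fold change 4.31 ± 0.25), and RSPH3 of the spoke stalk was called lower (-1.05 ± 0.30, edgeR adjusted p = 0.0015), a call lost with 2 of the other scalings and without any 1 of sheep 688, 690, 694 and 699.

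All 5 sheep tektins were called higher, and 4 of the 5 kept that sign under the 4 scalings, the exception being TEKT3, at -1.42 with plain totals. TEKT1 was at 39.3, 10.8, 5.27, 1.55 and 65.6 CPM in sperm against 0.164, 1.20 and 14.1 CPM in brain, where 2 sheep exceeded every brain library (log2 fold change 3.65 ± 0.41, edgeR adjusted p = 2.3e-11). TEKT2 was at 9.27, 0.566, 3.95, 1.78 and 34.4 CPM against 0.178, 1.02 and 3.32 CPM (3.12 ± 0.41). TEKT3 was at 14.2, 0.162, 2.96, 2.44 and 5.06 CPM against 1.00, 1.70 and 4.10 CPM (1.42 ± 0.27), and its call was lost without sheep 687. TEKT4 was at 8.46, 0.243, 0, 0 and 4.94 CPM and TEKT5 at 4.57, 0.162, 1.65, 0.555 and 1.46 CPM, with log2 fold changes of 3.87 ± 0.56 and 4.29 ± 0.60. Sheep 687 and 699 had the highest values of TEKT1, TEKT2, TEKT3 and TEKT4.

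Docking, intermediate chain, inner arm and assembly genes included members called higher in sheep sperm. ODAD3, a docking complex subunit, was at 128, 3.32, 19.1, 20.0 and 116 CPM against 0.403, 0.998 and 1.88 CPM, with no overlap and a change of 5.80 ± 0.23 on the log2 scale (edgeR adjusted p = 5.8e-29). DNAI7, an inner arm protein, was at 474, 22.1, 116, 265 and 271 CPM against 7.37, 13.6 and 22.0 CPM, where sheep 688 just cleared the highest brain library (4.09 ± 0.17). DNAAF1 was at 137, 4.69, 29.3, 18.3 and 130 CPM against 0.0161, 0.106 and 4.84 CPM, so that sheep 688 alone fell within the brain range (7.76 ± 0.41, edgeR adjusted p = 1.9e-23). DNAH6, an inner arm heavy chain, was at 133, 1.62, 16.1, 13.8 and 14.9 CPM (5.80 ± 0.53). All 3 sheep genes of the nexin-dynein regulatory complex were called higher, DRC7 among them at 14.5, 1.78, 3.95, 3.22 and 11.3 CPM (3.13 ± 0.48).

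Of the 10 assembly factors 5 were called lower in sheep sperm, near the share of 41.1% of all genes. Under all 4 scalings 7 of the 10 were lower. DNAAF5 had no count in sheep 687, 690 and 694 and 1.29 and 1.24 CPM in 688 and 699, against 7.47, 10.3 and 16.2 CPM in brain (-4.11 ± 0.31 on the log2 scale, edgeR adjusted p = 5.2e-17). DNAAF9 was at 4.83, 0.890, 8.23, 5.00 and 1.24 CPM against 44.7, 57.6 and 96.2 CPM (-4.02 ± 0.26). DNAAF10 was at 2.69, 0.324, 0.329, 2.00 and 2.36 CPM against 8.38, 14.0 and 38.2 CPM (-3.27 ± 0.28). DNAAF6 had no count in any of the 5 sperm libraries. Against the floor of 3 counts over the group, 0.0736 CPM, its brain mean of 0.693 CPM made it at least 9.41-fold lower in sperm. No sperm library of these 4 genes reached the lowest brain library.

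Of 46 tested sheep CFAP genes 16 were called higher, near the share of 33.1% of all genes, and 11 lower, against 41.1% of all genes. CFAP144, a protein inside the doublets, was at 26.5, 3.80, 24.0, 9.44 and 49.2 CPM in sperm against 0.0143, 0.0912 and 1.15 CPM in brain, with no overlap (log2 fold change 7.22 ± 0.33, edgeR adjusted p = 6.8e-26). CFAP97D1 was at 43.6, 2.18, 8.56, 4.66 and 20.9 CPM against 0.0160, 0.143 and 0.392 CPM, again without overlap (6.64 ± 0.29). CFAP221, of the central apparatus, was at 33.4 CPM in sheep 687 and at 0.329 to 1.91 CPM in the others (4.70 ± 0.49). Among those lower, CFAP20, which closes the inner junction of the doublet, was at 2.15, 1.21, 1.32, 2.44 and 2.92 CPM against 18.1, 24.0 and 38.0 CPM (-3.58 ± 0.17). CFAP418, a gene of retinal dystrophy, was at 0, 0.728, 1.65, 0.777 and 1.91 CPM against 11.8, 27.0 and 44.7 CPM (-4.85 ± 0.27, edgeR adjusted p = 3.6e-22). CFAP73 was at 0, 0.324, 0, 0 and 0.899 CPM against 1.81, 2.77 and 3.77 CPM (-3.27 ± 0.34). All 3 were below all 50 brain libraries.

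**Figure D3:**
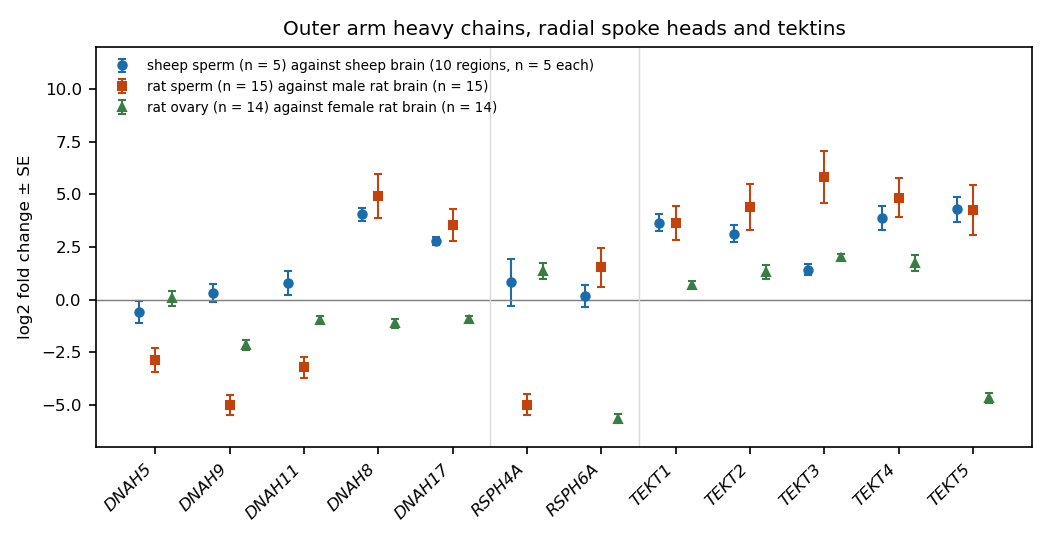
Log2 fold change against brain, with its standard error, of the outer arm heavy chains, the spoke heads RSPH4A and RSPH6A and the 5 tektins named in both species, in sheep sperm, rat sperm and rat ovary. DNAH9, DNAH11 and RSPH4A lie below 0 in rat sperm and near or above 0 in sheep sperm, where their signs turned with plain totals; the tektins lie above 0 in both, TEKT3 of sheep not with plain totals.

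Of the 91 members tested in the sperm of both species, 30 were called higher in both and 1 lower in both, against 12.3% and 20.4% of the 13740 symbols so tested. These calls are without the animal as a block and at the main scaling, on which the sheep direction depended. Of the 30, only CFAP68, CFAP119, CFAP141 and DNAAF1 were also called higher in rat sperm with the block. The sperm against brain difference itself was compared between species in 1 model. It was called larger in sheep for 7 of 94 members and smaller in sheep for 24, against 23.8% and 38.4% of the 15172 shared genes, with a median of -1.18 over members and -0.69 over all genes. With the animal as a block the counts were 15 and 14 (21.1% and 37.9% of all genes). Among the 7 were DNAH9, with a sheep minus rat difference of 4.97 ± 0.86 (edgeR adjusted p = 3.5e-06), and the spoke head RSPH4A at 3.74 ± 0.95 (edgeR adjusted p = 7.9e-04). DNAH11 was also called, at 3.54 ± 1.12 (edgeR adjusted p = 0.0058), but not with the block (2.53, adjusted p = 0.16), and DNAH5, the other outer arm heavy chain of cilia, was not called (1.82, edgeR adjusted p = 0.11). Assembly factors made 7 of the 24. Among the 6 members called lower in sheep sperm and higher in rat sperm, the largest differences were -6.05 ± 0.82 for DNAAF5 (edgeR adjusted p = 3.7e-08), -4.44 ± 0.39 for DNAAF10 (edgeR adjusted p = 8.9e-13) and -4.20 ± 1.60 for CFAP96 (edgeR adjusted p = 0.020). The CFAP96 call was lost with 2 other scalings, with the block (-0.95) and without sheep 688. Species, kit and brain sampling (whole brain or the mean of regions) cannot be told apart in these differences.

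In rat ovary members moved both ways against the brains of the same 14 females. edgeR's quasi-likelihood test called 31 of 95 tested members higher in ovary and 13 lower, against 27.7% and 29.2% of the 20801 genes tested. The median log2 fold change was 0.31 over members and 0.02 over all genes. Cfap107, Cfap68 and Cfap97d1 were below the filter. Ovary and brain did not overlap for 17 members, 6 higher and 11 lower, against 26.2% and 27.7% of all genes. All 31 were higher in ovary in most of the 14 females, and 23 were called with the animal as a block, which called 14 lower (27.3% and 29.6% of all genes). Members summed to 380, 742 and 955 CPM in ovary (lowest, median, highest) and to 716, 793 and 876 CPM in female brain. Abundant members weigh most here too, with Dnaaf9 at a mean of 55.4 CPM in ovary and Cfap36 at 106 CPM in female brain.

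Members of several roles were called higher in ovary. Dnah7, an inner arm heavy chain, was at 4.29, 7.70 and 11.5 CPM in ovary and 0.899, 1.17 and 2.08 CPM in female brain, with no overlap and a log2 fold change of 2.62 ± 0.16 (SE, n = 14 each; edgeR adjusted p = 1.4e-15). Odad4 of the docking complex was at 5.16, 8.14 and 11.2 CPM against 0.935, 1.38 and 2.08 CPM, also without overlap (2.53 ± 0.12, edgeR adjusted p = 3.1e-18). Dnai2 was at 0.613, 6.98 and 12.8 CPM against 0.418, 0.649 and 1.02 CPM and was higher in 13 of 14 females (3.39 ± 0.32). Dnaaf1 was at 2.03, 7.24 and 16.4 CPM against 0.718, 1.21 and 2.11 CPM, where the lowest ovary lay just within the brain range, and with a change of 2.71 ± 0.25 on the log2 scale (edgeR adjusted p = 1.3e-11). Cfap47 was at 3.44, 5.23 and 7.35 CPM against 0.637, 0.957 and 1.36 CPM (2.39 ± 0.14), and Tekt3 at 1.14, 2.17 and 3.05 CPM against 0.340, 0.540 and 0.740 CPM (2.03 ± 0.15), both without overlap. Cfap77, Rsph14 and Drc7 were also called higher, at 2.16 ± 0.29, 1.70 ± 0.34 and 1.55 ± 0.27 on the log2 scale. Among the other tektins, Tekt2 (1.32 ± 0.33) and Tekt4 (1.73 ± 0.37) were called higher, Tekt2 not with the block (0.98), while Tekt1 at 0.71 ± 0.15 missed the fold threshold.

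Rsph6a and Tekt5 were among the members with the largest falls in ovary. Rsph6a was at 0.0155, 0.0839 and 0.222 CPM in ovary against 3.64, 4.88 and 5.69 CPM in female brain (log2 fold change -5.67 ± 0.22, edgeR adjusted p = 1.1e-20), and Tekt5 at 0, 0.0628 and 0.0991 CPM against 1.04, 1.57 and 2.42 CPM (-4.68 ± 0.22). Neither gene overlapped between the tissues. Dnah8 was called lower at -1.12 ± 0.21, while Dnah17 at -0.94 ± 0.15 missed the fold threshold. The cilium form Rsph4a went the other way, at 0.0161, 6.40 and 8.75 CPM in ovary against 1.07, 2.04 and 3.52 CPM in brain, higher in 12 of 14 females (1.35 ± 0.39, edgeR adjusted p = 0.0022), and was not called with the block (1.08, adjusted p = 0.059). Dnah5 was at 0.0484, 5.59 and 9.31 CPM against 3.54, 4.99 and 8.05 CPM and was not called (0.05 ± 0.35, edgeR adjusted p = 0.90). Dnah9 was lower in every ovary, at 0.823, 5.59 and 7.86 CPM against 17.0, 21.2 and 25.1 CPM (-2.16 ± 0.25, edgeR adjusted p = 1.8e-09), and Dnah11 was at 1.77, 4.51 and 7.13 CPM against 4.93, 8.67 and 14.4 CPM (-0.96 ± 0.18).

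Further members below brain in ovary were CFAP and nexin-dynein genes. Cfap90 (chromosome 1, 36654287 to 36678303), a protein inside the doublets, was at 0, 0.141 and 0.325 CPM in ovary against 4.93, 9.12 and 12.7 CPM in brain (log2 fold change -5.99 ± 0.34, edgeR adjusted p = 1.4e-16). Cfap20dc was at 1.03, 2.29 and 4.69 CPM against 26.7, 33.5 and 68.1 CPM (-3.99 ± 0.20). Drc1, a core subunit of the nexin-dynein regulatory complex, was at 0.371, 3.36 and 5.71 CPM against 8.78, 11.6 and 16.5 CPM (-1.92 ± 0.26). No ovary reached a brain for these 3 genes. Cfap74 was lower by a smaller margin (-1.52 ± 0.37). Ovary library 18 was the lowest of the 14 for 52 of the 85 members that averaged 1 CPM or more in ovary, and library 29 the highest for 41. The same 2 libraries had the lowest and highest FOXJ1, the forkhead regulator of motile cilia, at 0.323 and 62.1 CPM around a median of 35.5 CPM. An oviduct epithelium list summed to 21.2, 42.5 and 89.2 CPM, lowest in library 18, which also had the highest oocyte genes GDF9 (24.5 CPM) and ZP3 (26.5 CPM); the part of these cells in the member values was not tested.

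Across the 10 sheep brain regions members were most often higher in EC, Pons and HC and most often lower in CB. Each region was tested against the mean of the other 9 with edgeR's quasi-likelihood test, on 92 members and 21147 genes in all. EC had 38 members called higher and none lower (2.22% and 0.0142% of all genes), Pons 36 and 1 (9.65% and 9.02%), HC 26 and none (3.46% and 1.15%) and BG 12 and none (5.54% and 4.73%). At an unadjusted p under 0.05, 0 members were lower in EC, 2 in HC and 5 in BG, and DESeq2 called 0 lower in EC and HC and 1 in BG. CB had 3 members called higher and 29 lower (9.34% and 19.5%). FC had 1 and 1 (2.36% and 0.397%), PPC 1 and 4 (2.2% and 0.454%), and MC, PC and VC 1 higher each (1.51%, 1.74% and 1.87%) and none lower, where 2, 19 and 24 members were lower at an unadjusted p under 0.05 and DESeq2 called 0, 8 and 9 lower. The median log2 fold change over members was 0.89 in EC, 0.69 in HC, 0.53 in Pons, 0.33 in BG and -0.86 in CB, and between -0.04 and 0.03 over all genes in these 5 regions. The highest regional median was in EC for 46 of the 94 members and in CB for 6.

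The EC, HC and Pons counts depended on single sheep. Without sheep 699, 3 members were called higher in EC, and without 694, 25. In HC the count was 6 without sheep 688 and 7 without 690. In Pons it was 17 without sheep 690 and 20 without 694, and in BG 4 without 694. The counts of members called lower in CB stayed between 23 and 29 when any 1 sheep was left out.

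RSPH4A showed this spread most plainly. In EC it was at 4.84, 0.0607, 0.175, 3.97 and 8.32 CPM in sheep 687, 688, 690, 694 and 699. In HC the values were 2.19, 2.87, 4.09, 0.364 and 0.0254 CPM, and in Pons 0.0359, 0.0613, 8.75, 4.31 and 1.03 CPM. So different sheep were high in different regions, and in every one of these regions at least 1 sheep was under 0.1 CPM. In MC sheep 687 alone was high, at 4.92 CPM, against at most 0.0919 CPM in the other 4, and in BG sheep 694 was at 5.08 CPM. In FC, PC, PPC and VC no library passed 0.120 CPM, and in CB none passed 0.231 CPM. The log2 fold changes were 4.07 ± 0.69 in EC (SE, n = 5; edgeR adjusted p = 2.7e-04), 3.75 ± 0.71 in Pons (edgeR adjusted p = 2.3e-05), 3.08 ± 0.74 in HC (edgeR adjusted p = 0.0042) and 2.57 ± 0.77 in BG (edgeR adjusted p = 0.0098), and the HC call was lost without sheep 690.

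The outer arm heavy chains DNAH9 and DNAH5 followed the same libraries. DNAH8 and DNAH17 had their highest library elsewhere, at 1.38 CPM in HC of sheep 694 and 5.60 CPM in PC of sheep 690. DNAH9 was at 19.1, 1.90, 4.33, 21.7 and 25.6 CPM in EC, 14.9, 16.1, 19.2, 9.39 and 5.79 CPM in HC and 2.37, 3.42, 21.6, 17.2 and 2.69 CPM in Pons. In MC it was at 19.9 CPM in sheep 687 and at 2.25 to 3.32 CPM in the others, and in CB at 0.898 to 1.78 CPM in all 5. DNAH5 was at 21.5, 1.96, 6.25, 22.8 and 22.7 CPM in EC and 0.541 to 2.01 CPM in CB, with log2 fold changes of 2.11 and -1.98. TEKT1 was at 9.42, 0.425, 1.62, 6.58 and 12.4 CPM in EC and 1.85, 2.93, 13.8, 14.1 and 3.81 CPM in Pons. In EC the sheep with high RSPH4A (687, 694 and 699) were also the high ones for DNAH9, DNAH5 and TEKT1, and in Pons 690 and 694 were. All 7 tested inner arm heavy chains were called higher in EC and 6 in Pons, as were 4 of 5 intermediate chains in each. Among assembly factors 1 of 10 was called in EC and 2 in Pons.

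The high values sat in 10 of the 50 libraries. The 10 libraries with the highest RSPH4A, 2.19 to 8.75 CPM, were EC of 3 sheep, HC of 3, Pons of 2, BG of sheep 694 and MC of sheep 687. The highest value outside them was 1.31 CPM. The same 10 had the highest FOXJ1, led by Pons of sheep 690 at 32.8 CPM, where the median over 50 libraries was 0.616 CPM. Of 75 members that averaged 1 CPM or more in sheep brain, 51 had their highest library among these 10, and EC of sheep 699 was the highest for 21. The summed CPM of an ependyma list, of which MIA was at 0, was 32.0, 51.7 and 91.5 (lowest, median, highest) in EC, 33.3, 44.6 and 66.6 in HC, 25.5, 37.6 and 107 in Pons and 14.1, 16.8 and 20.2 in CB. The list holds FOXJ1 itself, at 24.1 of the 91.5 CPM in EC of sheep 699 and 32.8 of the 107 CPM in Pons of sheep 690. It also holds CCDC153, AK7 and SPEF2, the last 2 counted below among further axoneme genes. The sum is therefore not separate from FOXJ1 or from axoneme genes. This ependyma sum was highest in sheep 699 for EC, 690 for Pons, 694 for BG and 687 for MC, the same sheep as for RSPH4A. In HC it was highest in sheep 688 (66.6, against 51.4 in 690), while RSPH4A was highest in 690. A choroid plexus list, with 7 of 8 genes found, summed to 5.23, 142 and 214 CPM in EC and to 4.14, 59.4 and 805 CPM in CB, where members were low. The part of these cells in the member values was not tested.

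**Figure D4:**
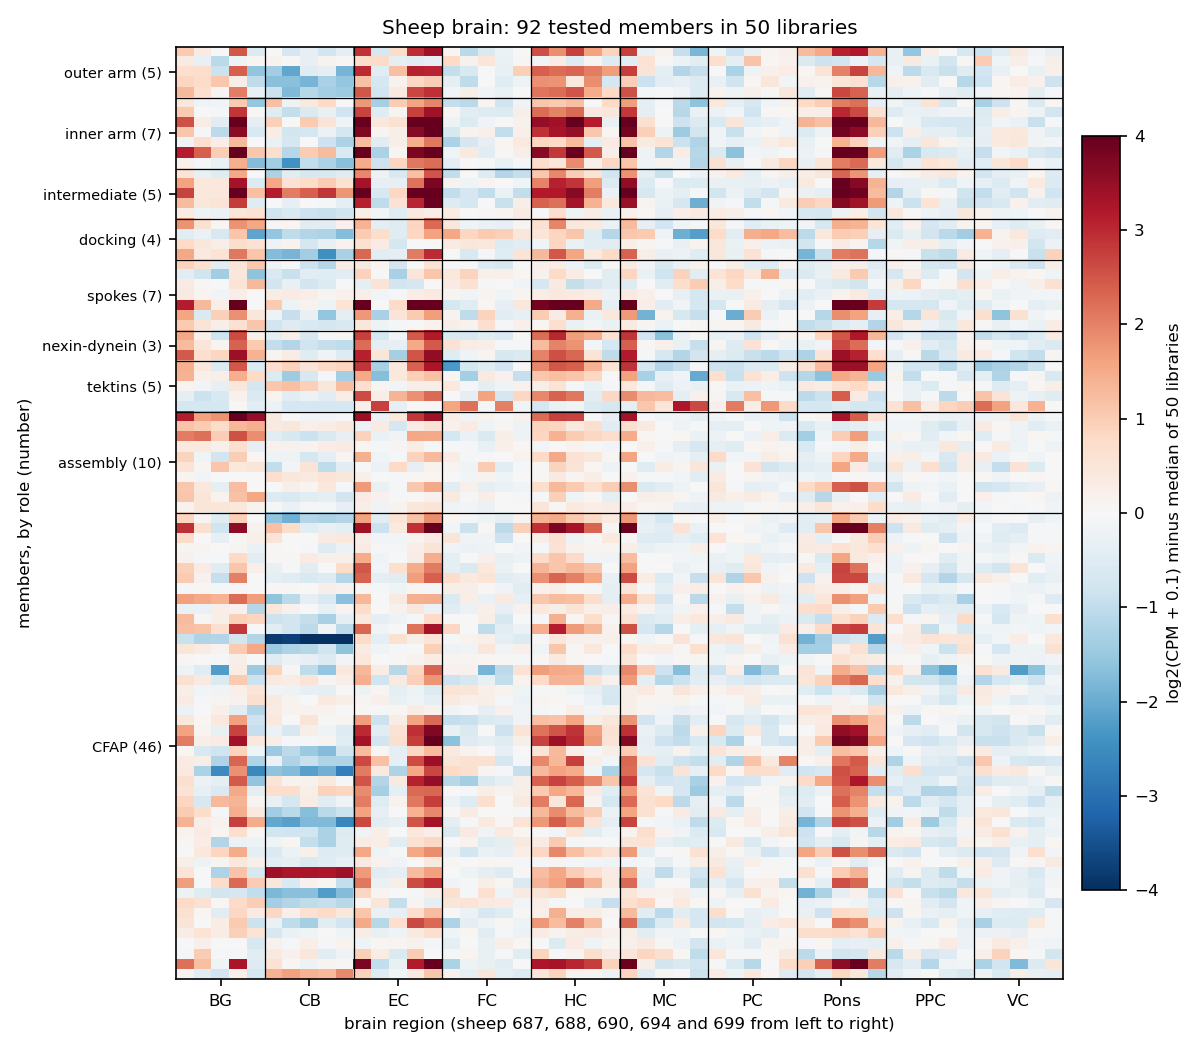
Each row is 1 of 92 sheep members, grouped by role, and each column 1 of the 50 sheep brain libraries, ordered by region. Colour is log2(CPM + 0.1) minus the gene's median over the 50 libraries; within EC, HC, Pons, BG and MC single sheep stand out across many rows, and the 5 CB libraries resemble each other.

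CFAP74 and CFAP251 set CB apart in all 5 sheep, in a region where 9.34% of all genes were called higher and 19.5% lower. CFAP74, of the central apparatus, was at 28.9, 26.6, 26.4, 26.1 and 29.0 CPM in CB and at no more than 8.94 CPM in any other region, a log2 fold change of 3.05 ± 0.23 (SE, n = 5; edgeR adjusted p = 3.6e-15). CFAP99 was at 7.09, 8.46, 7.05, 6.53 and 10.3 CPM in CB (1.57 ± 0.21, edgeR adjusted p = 1.3e-08), and DNAI3 at 1.91, 0.845, 1.09, 1.54 and 0.673 CPM (1.72 ± 0.66, edgeR adjusted p = 0.023). In the other direction CFAP251, of the calmodulin and spoke associated complex, was at 0.966, 1.04, 0.627, 0.389 and 0.377 CPM in CB against 3.15 CPM or more elsewhere (-4.40 ± 0.26, edgeR adjusted p = 5.2e-19). Within the other regions CFAP251 was at 17.6 to 22.2 CPM in PPC, 11.8 to 25.3 CPM in EC, 6.57 to 9.06 CPM in BG and 3.15 to 9.67 CPM in Pons. All 5 CB libraries lay above all 45 libraries of the other regions for 3 members and below for 4, against 7.22% and 5.01% of all genes. Of the 29 members lower in CB, 15 were CFAP genes, 4 of 5 outer arm and 3 of 7 inner arm heavy chains, DNAH8 at -3.36, DNAH9 at -2.18 and DNAH11 at -1.41 among them.

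TEKT5 was called in 6 regions. It was higher in MC (log2 fold change 3.05 ± 0.54, edgeR adjusted p = 3.1e-04), FC (2.25 ± 0.57), VC (2.16 ± 0.57) and PC (1.96 ± 0.59), where it was the only member called higher, and lower in Pons (-4.51 ± 1.30) and CB (-3.44 ± 1.16). Its values were 0.0285, 0.245, 0.128, 1.44 and 0.928 CPM in MC and 0.679, 0.401, 0.127, 0.336 and 0.0634 CPM in VC. In CB and Pons 1 sheep each had any count, at 0.0408 and 0.0153 CPM. At these levels a library holds few counts of the gene. Lower calls outside CB and Pons were DNAI3 in FC, at no more than 0.0891 CPM (-3.87 ± 1.18, edgeR adjusted p = 0.034, lost without any 1 sheep), and CFAP57, CFAP74 (not with the block), CFAP77 and CFAP206 in PPC. CFAP57 was at 0.304, 0.391, 0.205, 0.216 and 0.329 CPM there (-1.65 ± 0.53, edgeR adjusted p = 0.035), a call lost without any 1 of sheep 687, 688, 690 and 694, and CFAP251 was the member called higher in PPC (1.06 ± 0.16, edgeR adjusted p = 2.0e-05). DNAAF1 was the member with the largest rise in BG, at 1.71, 0.531, 0.613, 4.84 and 2.27 CPM (3.08 ± 0.47, edgeR adjusted p = 1.1e-06).

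**Figure D5:**
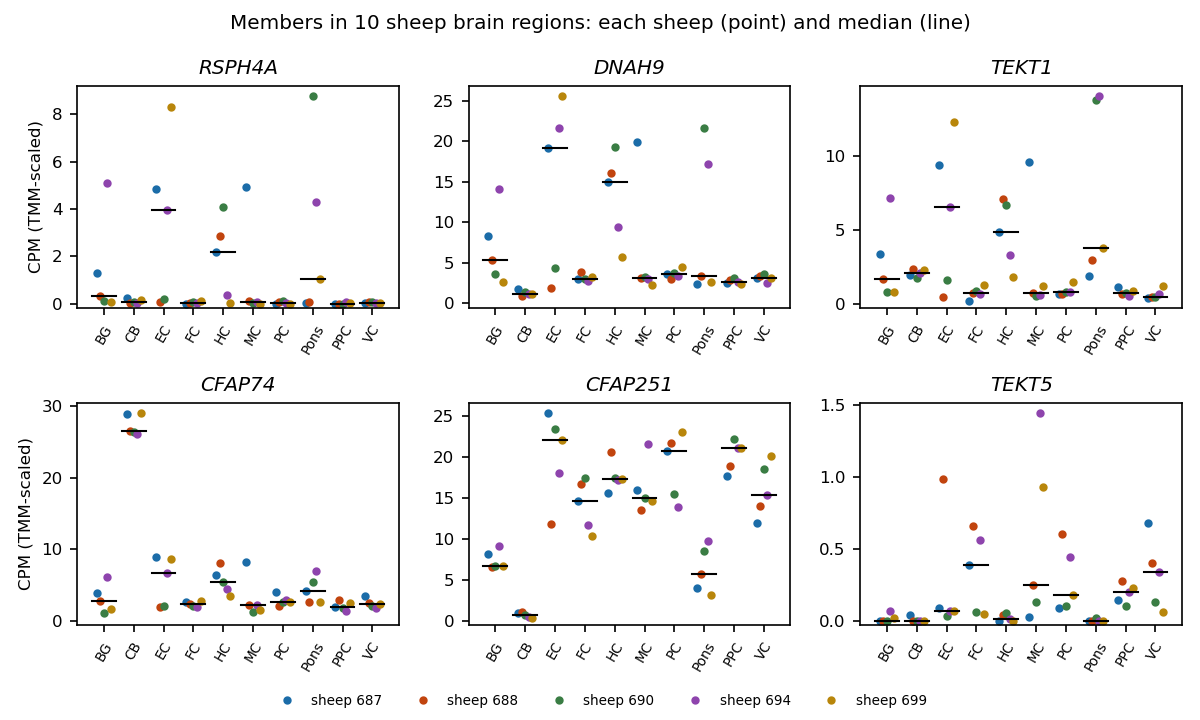
CPM of RSPH4A, DNAH9, TEKT1, CFAP74, CFAP251 and TEKT5 in the 10 sheep brain regions; each point is 1 sheep, coloured by animal, and the line is the median of 5. RSPH4A, DNAH9 and TEKT1 are high in single sheep of EC, HC, Pons, BG and MC, CFAP74 is high and CFAP251 low in all 5 CB libraries, and TEKT5 is highest in cortical samples.

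Other genes of the axoneme and its transport, from lists drawn up by function, were counted in the same fits. The shares of all genes called are those given above for each comparison. Of 36 further axoneme genes, 10 were called higher and none lower in EC, 8 and none in HC, 14 and 2 in Pons and 1 and 14 in CB. In rat sperm 22 of 33 tested were called higher and 2 lower, with a median log2 fold change of 2.71, in sheep sperm 15 and 7, and in ovary 9 and 7 of 33. Intraflagellar transport genes, which carry cargo along cilia of every kind, went another way: edgeR called none of the 20 tested in either direction in any of the 10 sheep regions, where at most 7 were higher and at most 7 lower at an unadjusted p under 0.05. In sheep sperm 2 of 20 were called higher and 12 lower, and in rat sperm 4 of 22 higher and 1 lower. Of the regulators of multiciliated cells, 3 of 8 tested were called higher in each of EC, HC and Pons. In ovary MYB, CCNO, TP73, DEUP1 and FOXJ1 were called higher and RFX3 lower. In rat sperm CCNO, DEUP1 and RFX2 were called higher, and MYB, RFX3 and GMNC lower.

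How much members varied between libraries also differed by tissue. Among members that averaged 1 CPM or more in whole rat brain, the highest library was at most 2.58-fold above the median library (median ratio 1.49), and among those in ovary at most 2.42-fold (1.52). By the same limit, in rat sperm 80 of 91 members had a highest library over 5 times the median library. In sheep brain 28 of 75 members passed 5-fold and 19 stayed within 2-fold, around a median ratio of 3.19. The sheep brain libraries mix regions with animals, while a rat group holds a single library per animal. The sheep ratios, and the sheep variation below, therefore include differences between regions and do not measure spread between animals alone. The ratio to the median measures upward spread alone and leaves out low libraries. In ovary library 18, Rsph4a was at 0.0161 CPM and Dnah5 at 0.0484 CPM, where the ovary medians were 6.40 and 5.59 CPM. Across members the coefficient of variation in sheep brain and in rat ovary had a Spearman correlation of 0.580 (70 members), in rat sperm and rat ovary 0.582 (80) and in sheep brain and rat sperm 0.308 (71). These are descriptions across genes that share libraries and depth, so no p is given.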

How the data were processed

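The authors deposited 1 table of raw counts per gene for each species, whole numbers with no normalization. Per the submitters' processing notes, Trimmomatic 0.39, STAR 2.7.5a and Rsubread 2.20.0 in R 4.4.2 were used, on ARS-UI_Ramb_v3.0 for sheep and GRCr8 for rat; no source used here gives the strand and multimapping settings, and 54 of the 98 rat members overlap another gene in RefSeq, 27 of them a coding one. Members and lists were chosen with earlier results of these data known. Libraries were grouped by their labels, each column was matched to its sample by name, and no libraries were identical.

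Counts were filtered with filterByExpr, scaled by the trimmed mean of M values over all libraries of a species (CPM here) and tested with edgeR 4.0.16 (quasi-likelihood, limma 3.58.1, R 4.3.3), with Benjamini-Hochberg adjustment over all genes of a comparison. Standard errors are the log2 fold change divided by the square root of F. Sperm and ovary were set against brain, each sheep region against the mean of the other 9, and the sperm against brain difference between species by shared symbol. The 10 brain libraries of 1 sheep share an animal, and the main sheep fits took them as independent. Their SE and p therefore do not measure spread between animals alone. Scripts were tested on simulated data. DESeq2 1.42.0, 3 other scalings (relative log expression, upper quartile, plain totals), no filter, the animal as a block and leaving out animals were alternatives. Libraries of the same number come from the same animal per the labels; their deviations from group means had a median correlation of 0.053 in rat sperm and brain, 0.003 in ovary and brain, 0.063 in sheep sperm and brain and 0.186 between sheep regions. Ribosomal RNA entries took up to 83.1% of the counts of a male and 86.9% of a female rat brain library, and fits without these 2 libraries were added after the data were seen; female brain 22, at 54.0%, was kept. Depth limits low members: intervals cover replicate spread, and 3 counts is the floor used where a group has none.

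Named genes are the outer arm heavy chains, RSPH4A, RSPH6A and TEKT1 to TEKT5; per role and direction the called member with the largest change and a mean of at least 1 CPM (3 for CFAP genes); the same per sheep region; and the largest species differences. Other named members were chosen after their values were seen.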

Additional observations from a re-analysis of the deposited data

Results flagged for a closer look

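Of 143 groups of 5 sheep libraries tested for a library far from the others, 14 had one. The limit used gives about 1 in 20 for independent, normally spread values. Genes here share libraries, many lie near 0 and 6 of the 14 flags came from 1 library, so that rate does not apply. The motor cortex of sheep 687 stood above the other 4 sheep in 6 measures: DNAH8 at 0.699 CPM, DNAH9 at 19.9 CPM, DNAH11 at 6.04 CPM, RSPH4A at 4.92 CPM, TEKT1 at 9.59 CPM and the mean log2(CPM + 1) over members at 2.79. FOXJ1 was at 21.6 CPM in that library, and the part of ciliated cells in these values was not tested. The other far samples were single genes: DNAH17 at 1.97 CPM in the cerebellum of sheep 690, TEKT1 at 1.45 CPM in the prefrontal cortex of 699, TEKT3 at 1.75 CPM in the prefrontal cortex of 687, and TEKT4 at 0.376 CPM in the prefrontal cortex and 1.01 CPM in the pons of 690. TEKT5 was far from the others at 0.0408 CPM in the cerebellum of 687, 0.986 CPM in the entorhinal cortex of 688 and 0.0153 CPM in the pons of 690. In cerebellum and pons the other 4 sheep had no count, which alone sets the flag, and the pons value is 1 count.

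Sperm against brain was compared between species for the 6 members called lower in sheep sperm and higher in rat sperm, by the test of the difference itself. The largest differences were -6.05 for DNAAF5, -4.44 for DNAAF10 and -4.20 for CFAP96 on the log2 scale (sheep minus rat). CFAP96 was not called with the animal as a block (-0.95).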

How the results depend on the processing

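Members called higher and lower are counted. In rat sperm (52 and 7) the replicate block gave 11 and 21 and DESeq2 12 lower. In sheep sperm (40 and 17) plain totals gave 14 and 53, and upper quartile factors 10 lower. The species difference (7 and 24) became 17 and 15 with DESeq2, 12 and 12 with relative log expression, 15 and 14 with the replicate block and 12 and 13 with upper quartile factors; leaving out 1 animal gave 4 to 9 and 15 to 29. Among regions DESeq2 called 1 lower in BG, 8 in FC, 8 in PC, 20 in PPC and 9 in VC; plain totals gave 6 higher and 1 lower in BG, and 0 and 8 in PPC; the replicate block gave 2 higher in PC. Leaving out 1 sheep gave, for higher, 3 to 42 in EC, 6 to 27 in HC, 17 to 40 in Pons, 4 to 14 in BG and 0 to 1 in FC, PC and VC, and for lower, 0 to 2 in BG and Pons, 0 to 0 in FC, 0 to 1 in MC and 0 to 4 in PPC.

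Some single members reversed. In rat sperm the replicate block gave -0.34 for Dnai2, -1.16 for Drc7, -0.24 for Rsph14, -3.16 for Rsph6a, -0.66 for Tekt2 and -1.91 for Tekt5. In ovary Dnah5 was -0.16 with the block and -0.033 to 0.16 when 1 female was left out. In sheep sperm plain totals gave -1.36 for DNAH11, -2.31 for DNAH9, -1.58 for RSPH4A, -2.55 for RSPH6A and -1.42 for TEKT3, upper quartile factors gave 0.18 for DNAH5, and leaving out 1 sheep gave -0.71 to 1.29 for DNAH11 and -0.25 to 0.54 for RSPH6A. For plain totals and the block the cause was not tested; fewer samples were used where an animal was left out. All other counts stayed within 1.5 times, and of the single-member values 1448 kept direction and call. At the depth of sperm, members with a few counts in a library cannot be told from 0.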
